A study of Bos taurus with 8 samples.

Results

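The primitive endoderm of day 9 bovine embryos was compared with the inner cell mass of day 8. The authors' cell table gives each cell a class and an age, here LB PE at day 9 and MB ICM at day 8, without spelling the codes out; PE is read as primitive endoderm and ICM as inner cell mass. LB PE held 25 cells and MB ICM held 51 cells, together 76 of the 286 cells with values. Members were all cells of either class, averaged per library where a library held at least 3 of them. LB PE gave 2 averages, of 14 cells in replicate 3 and 9 cells in replicate 5. MB ICM gave 3 averages, of 24 cells in replicate 1, 21 in replicate 2 and 5 in replicate 5. The epiblast class of day 9, LB EPI, is used as a second day 9 class, with averages of 11, 9 and 24 cells in replicates 2, 3 and 5. All cells are from wildtype Bos taurus embryos, with ages counted in days after fertilization. The cells of 6 wildtype libraries were sequenced as polyadenylated RNA of single cells, each library being a pool of barcoded cells. Neither the embryo of a cell nor the way classes were assigned is given in the sources used here. If the classes were made from these same values, genes that define them are not independent evidence of a difference. Only replicate 5 held averages of both classes, so class, age and library largely cannot be told apart.

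The primitive endoderm, mostly called hypoblast in cattle, is an epithelium that separates from the epiblast within the inner cell mass. In the mouse, inner cells first carry both GATA6 and NANOG, and signalling through FGF receptors and ERK favours GATA6 and then the receptor PDGFRA, SOX17 and GATA4. The hypoblast later lines the blastocoel and the yolk sac, lays down basement membrane, takes up and secretes lipids and proteins, and signals to the epiblast.

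Reads per cell were recovered from the deposited values and differed between the classes. The median was 39210 reads in LB PE and 132481 in MB ICM. Within LB PE the cells of replicate 3 had a median of 37976.5 reads and those of replicate 5 had 98488. In MB ICM the medians were 141160.5, 132481 and 90726 reads in replicates 1, 2 and 5. Of 48 distinct cell barcodes, 46 occurred in all 6 libraries, which share a barcode set. Levels are printed as CPM, counts per 1000000 reads of a cell, averaged over cells, with LB PE in the order replicate 3 and 5 and MB ICM in the order replicate 1, 2 and 5. Changes are LB PE minus MB ICM on the log2(CPM + 10) scale, which understates the change of low genes, and are printed with their standard error (SE). The p-values are limma's, adjusted over all tested genes by the Benjamini-Hochberg method.

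Of 12540 genes tested, 88 (0.702%) had an adjusted p under 0.05, the threshold at which a gene is called. Of these, 74 (0.59%) were higher in LB PE and 14 (0.112%) were lower. The largest rises were those of CLU, PXDN, ANKRD1, APOE and BGN, whose products are described below. The genes called lower included an amino acid transporter, a growth factor and a protease inhibitor. Among all tested genes every LB PE average lay above every MB ICM average in 12.2%, and below in 8.84%. The median change over all tested genes was 0.02, with 51.7% above 0. All 88 called genes had the same direction within replicate 5, where both classes came from 1 library; these averages are 2 of the 5 behind each call, so this is no independent check. In 48 of the 74 genes called higher, the MB ICM mean was under 10 CPM.

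These calls assume that all classes vary equally between libraries. The median SD of a gene between libraries was 0.391 log2 units in LB PE and 0.345 in MB ICM, against 0.164 to 0.327 in the other classes with more than 1 average. When limma was allowed a spread for each class, an alternative added after the data were seen, it called 0 genes, with 745 at an unadjusted p under 0.05 and a lowest adjusted p of 0.10. The count also fell to 0 with the library as a fixed term (1603 at an unadjusted p under 0.05) and with LB PE and MB ICM fitted alone (584). Leaving out replicate 5 gave 2 called genes, of which 1 was among the 88, and leaving out replicate 3 gave 269, of which 50 were. Without replicate 1, 2, 4 or 6 the count was 33, 39, 47 or 51. In what follows "called" means called with 1 spread shared by all classes, and every such call between LB PE and MB ICM was lost under a spread per class. Tested on simulated data for LB PE against MB ICM, the shared spread let through several times more false calls than the threshold allows. The adjusted p-values printed below for that comparison are therefore too small. The comparisons with LB EPI were not scored in that test. Calls between LB PE and LB EPI also fell with a spread per class, from 676 to 133. The 88 genes kept their sign wherever they were tested under every alternative except limma-voom on summed reads (87 of 88) and cells of 20000 or more reads (83 of 85). Among the called genes followed singly, every call was lost in several of at most 22 alternative settings. The number ranged from 6 (APOA2 and EPB41L4A) to 19 (MARCKSL1 and NBAS).

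**Figure D1:**
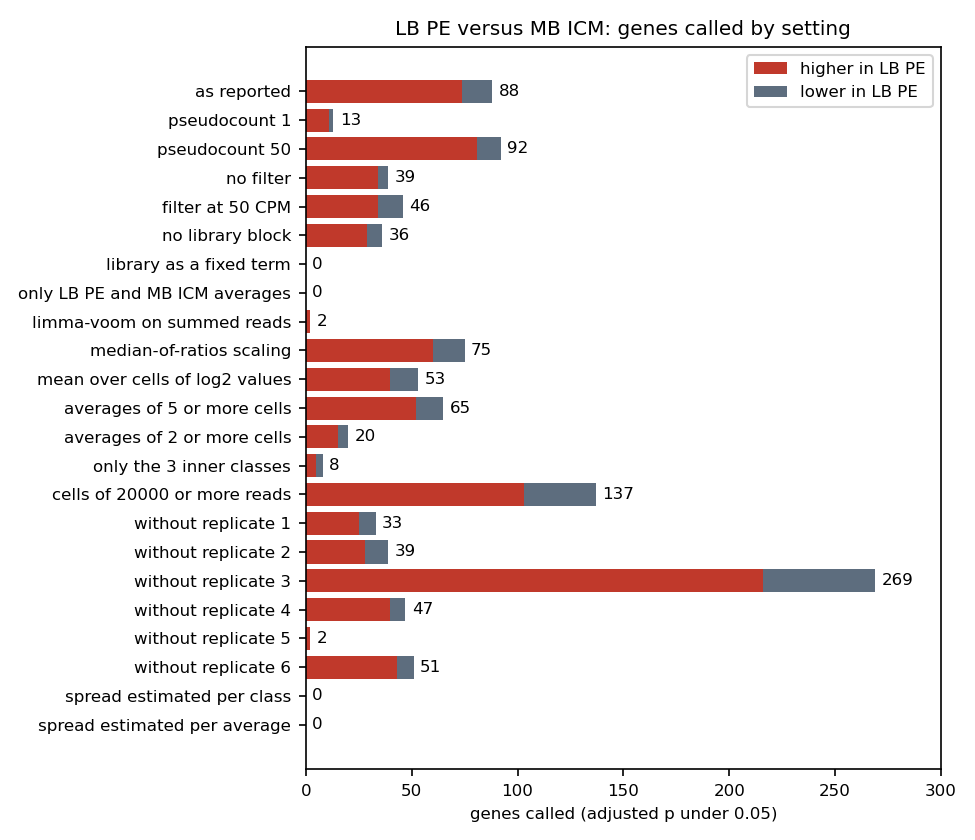
Number of genes called between LB PE and MB ICM (x axis, adjusted p under 0.05) under each processing setting (y axis), split into genes higher and lower in LB PE. The count is 88 as reported, 0 when a spread is estimated per class and 269 without replicate 3.

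Among the transcription factors of the hypoblast, GATA4 was called higher in LB PE and GATA6 and HNF4A were not called. GATA4, a zinc finger factor of the later endoderm, averaged 40.7 and 20.1 CPM in LB PE, against 3.1, 4.67 and 4.41 CPM in MB ICM. The classes did not overlap, and the change was 1.48 ± 0.32 SE, adjusted p = 0.0382. Outside LB PE no library average of GATA4 passed 8.79 CPM, under the 10 CPM needed for testing. GATA4 was thus tested only through LB PE, the class where it is high. The GATA4 call was lost in 16 of 21 alternative settings, among them leaving out replicate 1, 2, 4 or 6. GATA6, the factor that marks the lineage from its start, averaged 532 and 259.7 CPM in LB PE, against 311, 274 and 145 CPM in MB ICM. Replicates 1 and 2 of MB ICM lay above replicate 5 of LB PE, so the classes overlapped, and the change was 0.64 ± 0.38 SE, adjusted p = 0.504. HNF4A, a nuclear receptor of endodermal epithelia, stood at 184 and 174 CPM in LB PE, against 109, 206 and 134 CPM in MB ICM, which also overlapped (change 0.24 ± 0.34 SE, adjusted p = 0.844). Of the 7 tested members of the 11-gene list, 1 was called higher and 0 lower, and the median change was 0.24.

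SOX17, an endoderm factor of the mouse primitive endoderm, was not detected in LB PE. Without thinning, a read was found in 0 of 25 LB PE cells and in 3 of 51 MB ICM cells, which are deeper. For LB PE the approximate upper 95% limit, 3 divided by the number of cells, is a share of 12%. Over all classes SOX17 was seen in 5 of 286 cells and at most at 23.9 CPM. At the median depth of LB PE that level amounts to 0.937 reads, so a single cell of that depth can lack a read of it by sampling. The gene stayed below the filter on low values and was not tested.

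**Figure D2:**
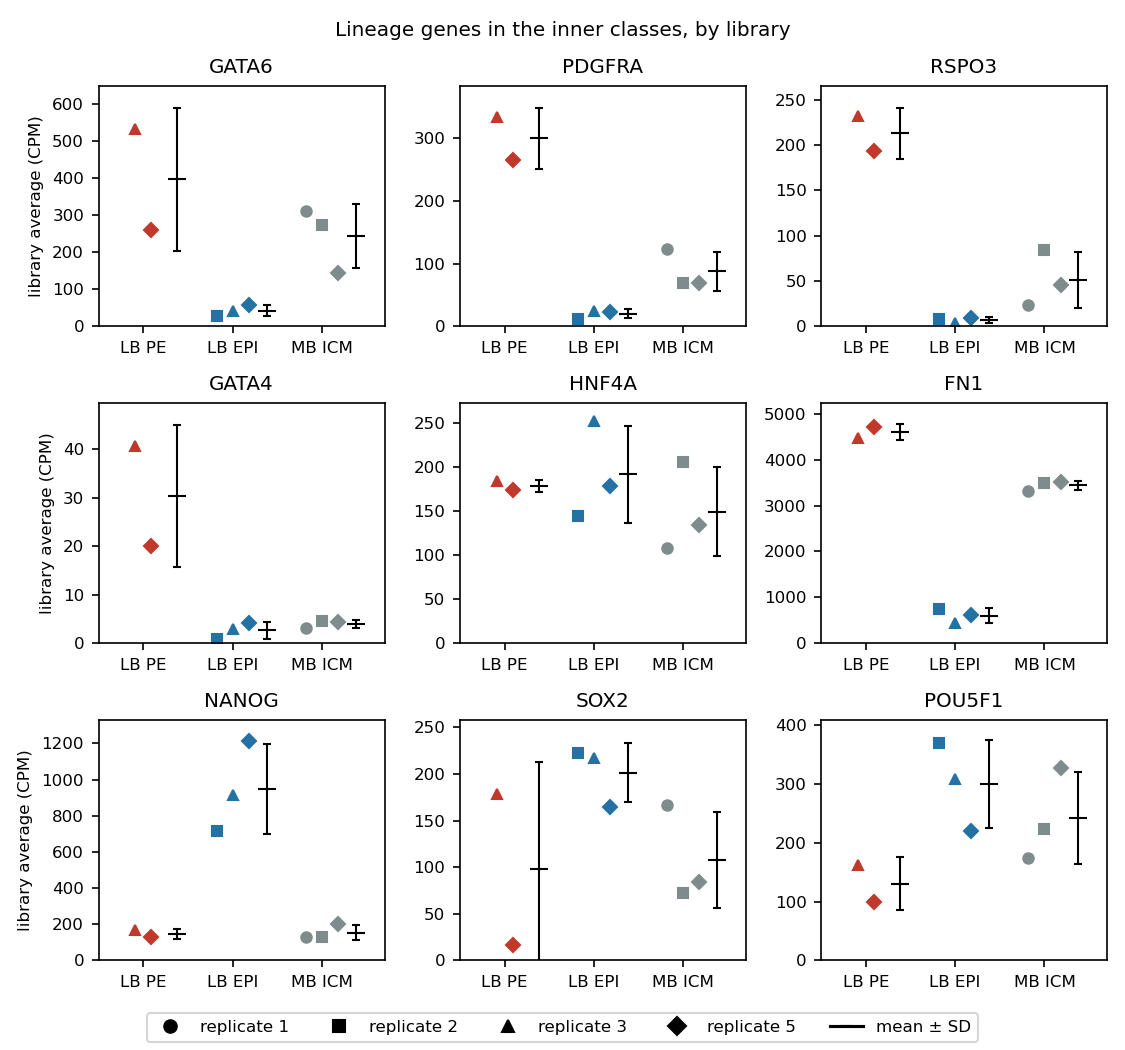
Average level (y axis, CPM) of 9 lineage genes in LB PE, LB EPI and MB ICM, each point being a library and the bars the mean ± SD over libraries; the lower end of the SOX2 bar of LB PE lies below 0 and is not drawn. LB PE and MB ICM differ most in PDGFRA, RSPO3 and GATA4, while GATA6, HNF4A and NANOG overlap between them.

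PDGFRA, RSPO3 and CDH2, surface and secreted markers of the hypoblast, were called higher in LB PE. Their calls were lost in 13, 11 and 18 of 22 alternative settings. PDGFRA, the platelet-derived growth factor receptor used to mark this lineage, averaged 333 and 265 CPM in LB PE, against 123, 69.5 and 69.8 CPM in MB ICM. Both LB PE libraries lay above all of MB ICM (change 1.70 ± 0.37 SE, adjusted p = 0.0334). RSPO3, a secreted protein that strengthens WNT signalling, averaged 232 and 193 CPM in LB PE, against 23.4, 84.3 and 45.3 CPM in MB ICM. The classes did not overlap (change 2.03 ± 0.38 SE, adjusted p = 0.0157), and within replicate 5 the change was 1.88. CDH2, the adhesion protein N-cadherin, averaged 55 and 31.3 CPM in LB PE, against 2.2, 21.4 and 0 CPM in MB ICM, with replicate 2 the highest MB ICM library (change 1.73 ± 0.38 SE, adjusted p = 0.0391). LRP2, the endocytic receptor megalin, averaged 294 and 134 CPM in LB PE, against 55.6, 108 and 43.5 CPM in MB ICM, without overlap and not called (change 1.37 ± 0.37 SE, adjusted p = 0.098). FN1, the matrix protein fibronectin, was abundant in both classes, at 4472 and 4714 CPM in LB PE, against 3318, 3480.0 and 3516 CPM in MB ICM. It did not overlap, but its change of 0.48 was not called (adjusted p = 0.504). LEFTY2, an inhibitor of Nodal, was listed at 0 in both LB PE libraries, against 22.8, 4.86 and 8.79 CPM in MB ICM, and was not called (adjusted p = 0.11). Of 14 tested members of the surface and secreted list, 3 were called higher and 0 lower. The median change was 0.33, and 11 of the 14 were above 0.

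CLU, APOE, APOA2 and FGB, secreted products of the visceral endoderm, were called higher in LB PE. CLU, the secreted chaperone clusterin, averaged 223 and 365 CPM in LB PE, against 10.1, 33.5 and 9.36 CPM in MB ICM. Every LB PE library exceeded every MB ICM library, and the change was 3.47 ± 0.49 SE, adjusted p = 0.00402, the largest of all called genes. APOE, an apolipoprotein of lipid uptake, averaged 514 and 289 CPM in LB PE, against 26.8, 119 and 53.5 CPM in MB ICM. Replicate 2 was again the highest MB ICM library, below both LB PE libraries (change 2.41 ± 0.48 SE, adjusted p = 0.0253). APOA2, an apolipoprotein of high-density lipoprotein, averaged 78.3 and 20.8 CPM in LB PE, against 0.669, 1.79 and 0 CPM in MB ICM. It was near 0 throughout MB ICM (change 2.23 ± 0.32 SE, adjusted p = 0.00402). Outside LB PE no library average of APOA2 passed 4.16 CPM, so it was tested only through LB PE. FGB, the beta chain of fibrinogen, averaged 6.23 and 19.1 CPM in LB PE and was listed at 0 in all 3 MB ICM libraries, so no fold is given (adjusted p = 0.044). Of these libraries only replicate 5 of LB PE reached the 10 CPM needed for testing. The FGB call was lost in 13 of the 16 alternative settings that tested it. APOA1, the main protein of high-density lipoprotein, averaged 1911 and 1112 CPM in LB PE, against 510.3, 1413 and 539.5 CPM in MB ICM. Its classes overlapped and it was not called (change 1.18 ± 0.48 SE, adjusted p = 0.303). Of 11 tested members of the 23-gene list, 4 were called higher and 0 lower. The median change was 1.14, and 10 of 11 were above 0. FABP5, a carrier of fatty acids inside the cell and not on that list, averaged 223 and 124 CPM in LB PE, against 70.5, 38.2 and 11.7 CPM in MB ICM (change 2.08 ± 0.44 SE, adjusted p = 0.0328).

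Of 23 tested basement membrane genes, 1 was called higher in LB PE and 0 lower. LAMA1, the laminin alpha-1 chain of embryonic basement membranes, averaged 76.1 and 23.7 CPM in LB PE, against 3.75, 2.96 and 0.769 CPM in MB ICM. The classes did not overlap (change 2.25 ± 0.51 SE, adjusted p = 0.044), and the level in replicate 3 of LB PE was well above that in replicate 5. The LAMA1 call was lost in 18 of 22 alternative settings, among them leaving out replicate 1, 2, 4 or 6. Its partner chain LAMB1 averaged 285 and 85.3 CPM in LB PE, against 44.1, 38.4 and 23 CPM in MB ICM, without overlap and just outside the threshold (change 1.88 ± 0.45 SE, adjusted p = 0.0609). LAMC1, the gamma chain, averaged 164 and 49 CPM in LB PE, against 28.4, 58 and 11.4 CPM in MB ICM, and the classes overlapped (adjusted p = 0.162). COL4A1, the alpha-1 chain of collagen IV, averaged 408 and 252 CPM in LB PE, against 439, 279.7 and 133 CPM in MB ICM, also with overlap (adjusted p = 0.75). PLOD2, a lysyl hydroxylase of collagen, averaged 50.2 and 28.9 CPM in LB PE, against 6.94, 9.07 and 5.18 CPM in MB ICM and was not called (adjusted p = 0.0762). The list had a median change of 0.59, with 21 of 23 members above 0. Outside the list, PXDN and BGN were also called. PXDN, the peroxidase that crosslinks collagen IV, averaged 174 and 82.3 CPM in LB PE, against 7.48, 9.33 and 0.769 CPM in MB ICM (change 2.88 ± 0.48 SE, adjusted p = 0.00763). BGN, the proteoglycan biglycan, averaged 44.2 and 51.7 CPM in LB PE, against 0.766, 4.84 and 0 CPM in MB ICM (change 2.27 ± 0.34 SE, adjusted p = 0.00402).

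Fibroblast markers, which include collagens, had changes of the same sign as the matrix genes, and none was called with all libraries. All 10 tested of 11 fibroblast markers had a change above 0, with a median of 1.25. Their summed level was 479 and 1258 CPM in LB PE, against 185, 802 and 150 CPM in MB ICM, so the libraries of the classes overlapped. FBLN1, the matrix protein fibulin-1, averaged 146 and 128 CPM in LB PE, against 4.5, 88.5 and 11.1 CPM in MB ICM (change 2.21 ± 0.52 SE, adjusted p = 0.0512), and was called without replicate 2 (adjusted p = 0.00668). COL3A1, a chain of fibrillar collagen, averaged 73.5 and 87.2 CPM in LB PE, against 15.9, 49.1 and 30.7 CPM in MB ICM (adjusted p = 0.244). COL1A1, a chain of the main fibrillar collagen, averaged 105 and 393 CPM in LB PE, against 93.2, 348 and 73 CPM in MB ICM (adjusted p = 0.761). None of the 10 tested markers was at 0 in an LB PE library, and DCN, LUM, THY1 and COL6A1 were at 0 in replicate 5 of MB ICM. Their part in the matrix result was not tested.

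**Figure D3:**
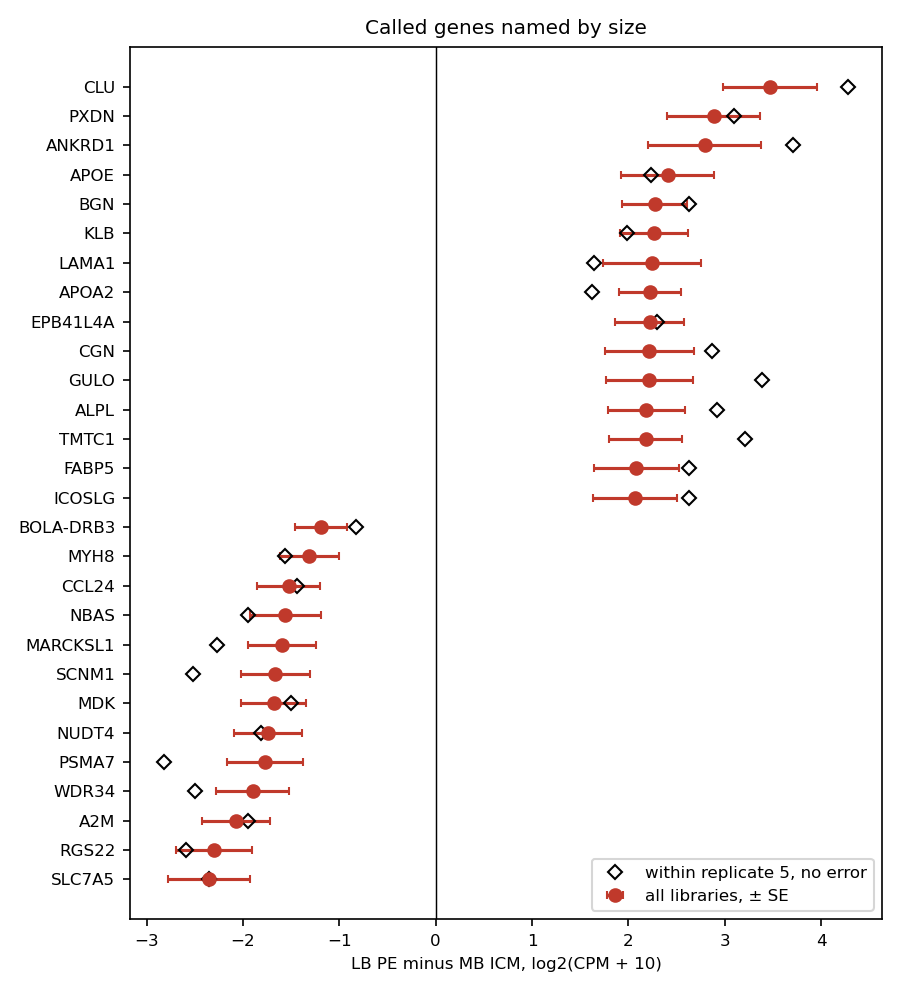
Change from MB ICM to LB PE (x axis, log2 of CPM + 10) of the 15 largest called rises and the 13 called falls with a symbol (y axis). Filled points are fitted changes with their SE and open diamonds are the difference within replicate 5. Genes were chosen for display only if both had the same sign.

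KLB and ETV5 were called higher among genes of FGF reception and ERK feedback. KLB, beta-klotho, a co-receptor for endocrine FGFs, averaged 132 and 117 CPM in LB PE, against 5.38, 30.6 and 22.2 CPM in MB ICM. The classes did not overlap (change 2.27 ± 0.35 SE, adjusted p = 0.00556). ETV5, an ETS factor that ERK signalling switches on, averaged 34.1 and 13.5 CPM in LB PE, against 2.46, 6.69 and 0 CPM in MB ICM (change 1.37 ± 0.30 SE, adjusted p = 0.0391). The ETV5 call was lost in 17 of 21 alternative settings, among them leaving out replicate 1, 2, 4 or 6. SPRED2, an inhibitor of the ERK pathway, averaged 40.4 and 45.8 CPM in LB PE, against 10.7, 15.1 and 11.4 CPM in MB ICM, without overlap and not called (adjusted p = 0.0933). DUSP5, a phosphatase of nuclear ERK, averaged 35.1 and 110.0 CPM in LB PE, against 22.1, 40.9 and 20.5 CPM in MB ICM, with overlap (adjusted p = 0.23), and was called without replicate 3 (adjusted p = 0.047). Of 22 tested genes of this list 2 were called higher and 0 lower, with a median change of 0.49 and 15 above 0. FGF4, the ligand made by the epiblast in the mouse, was listed at 0 in every LB PE and MB ICM library.

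KRT19, S100A10 and CGN, epithelial genes that the trophectoderm also uses, were called higher in LB PE. Their calls were lost in 11, 17 and 16 of 22 alternative settings. KRT19, a keratin of simple epithelia, averaged 1508 and 783 CPM in LB PE, against 186, 275 and 238 CPM in MB ICM. Both LB PE libraries were above all of MB ICM (change 1.97 ± 0.38 SE, adjusted p = 0.0224). S100A10, a partner of annexin A2 at the plasma membrane, averaged 589 and 1000.0 CPM in LB PE, against 385, 262 and 303 CPM in MB ICM (change 1.28 ± 0.29 SE, adjusted p = 0.044), and its change was 0.85 without replicate 5. CGN, the tight junction protein cingulin, averaged 194 and 76.7 CPM in LB PE, against 31.5, 38.8 and 1.92 CPM in MB ICM (change 2.22 ± 0.46 SE, adjusted p = 0.0277). KRT8, the type II keratin partner of KRT18 and KRT19, averaged 3580.0 and 1446 CPM in LB PE, against 1180.0, 1138 and 771 CPM in MB ICM, without overlap and not called (adjusted p = 0.114). KRT18 averaged 1895 and 469.9 CPM in LB PE, against 678, 829 and 423 CPM in MB ICM, with overlap (adjusted p = 0.726). Of 22 tested trophectoderm genes, 2 were called higher and 0 lower, with a median change of 0.41 and 17 above 0.

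No transcription factor of the trophectoderm list was called. CDX2, which defines the lineage in the mouse, averaged 9.29 and 0 CPM in LB PE, against 4.31, 2.9 and 1.15 CPM in MB ICM, close to 0 in both classes. CDX2, GATA2 and TFAP2A were at 0 in replicate 5 of LB PE. GATA3, a zinc finger factor of the same lineage, stood at 98.5 and 74.3 CPM in LB PE, against 179, 116 and 138 CPM in MB ICM, without overlap and not called (change -0.69 ± 0.29 SE, adjusted p = 0.321). The summed level of the trophectoderm list was 9883 and 5313 CPM in LB PE, against 4034, 4082 and 2863 CPM in MB ICM. Among the day 9 classes KRT8 averaged 2513 ± 1509 CPM in LB PE and 23300 ± 4439 CPM in LB TE, the day 9 trophectoderm (SD, n = 2 libraries each). The part of trophectoderm RNA in the keratin result was not tested.

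No pluripotency gene was called lower in LB PE, but SOX2 was called lower when replicate 3 was left out. NANOG, the homeobox factor of the epiblast, averaged 168 and 128 CPM in LB PE, against 129.5, 129.5 and 203 CPM in MB ICM, and the classes overlapped (change -0.06 ± 0.38 SE, adjusted p = 0.984). SOX2, another core pluripotency factor, averaged 179 and 17 CPM in LB PE, against 167, 72.4 and 84.5 CPM in MB ICM. The LB PE libraries stood apart, with replicate 3 above all MB ICM libraries and replicate 5 below them (change -0.61 ± 0.54 SE, adjusted p = 0.686). Without replicate 3 the change of SOX2 was -1.94 (adjusted p = 0.0435), and without replicate 5 it was 0.81 (adjusted p = 0.613). POU5F1, the third of these factors, averaged 162 and 98.8 CPM in LB PE, against 174, 224 and 327 CPM in MB ICM, lower without overlap and not called (change -0.82 ± 0.34 SE, adjusted p = 0.311). Without replicate 5 its change was -0.16. In the 5 MB ICM cells of replicate 5 POU5F1 had a median of 132 CPM and a highest value of 1139 CPM. The 327 CPM average of that library therefore leans on 1 cell, and the shallowest of the 5 cells had 2633 reads. TDGF1, the Nodal co-receptor Cripto, averaged 85.4 and 154 CPM in LB PE, against 4.01, 54.3 and 41.7 CPM in MB ICM (adjusted p = 0.21). DNMT3B, a DNA methyltransferase, averaged 612 and 866 CPM in LB PE, against 65.7, 153 and 593 CPM in MB ICM (adjusted p = 0.25). ZFP42, known as REX1, averaged 27.6 and 15.7 CPM in LB PE, against 1.19, 5.45 and 2.31 CPM in MB ICM (adjusted p = 0.0699). In all 3 genes both LB PE libraries lay above MB ICM, and none was called. Of 23 tested members 1 was called higher, which was ETV5, and 0 lower. The median change was -0.05, with 11 above 0.

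The genes called lower in LB PE were of mixed function. SLC7A5, a transporter of large neutral amino acids, averaged 22.5 and 51.1 CPM in LB PE, against 245, 155 and 303 CPM in MB ICM. The lowest MB ICM library lay above both LB PE libraries (change -2.35 ± 0.42 SE, adjusted p = 0.0107). A2M, the protease inhibitor alpha-2-macroglobulin, averaged 8.56 and 3.46 CPM in LB PE, against 92.8, 56.8 and 41.7 CPM in MB ICM (change -2.07 ± 0.35 SE, adjusted p = 0.00763). MDK, the growth factor midkine, averaged 12.2 and 31.9 CPM in LB PE, against 78.9, 83.4 and 108 CPM in MB ICM (change -1.68 ± 0.33 SE, adjusted p = 0.0224). RGS22, a regulator of G protein signalling, averaged 2.17 and 3.38 CPM in LB PE, against 40.3, 64.7 and 70.8 CPM in MB ICM (change -2.30 ± 0.40 SE, adjusted p = 0.00763). WDR34, a chain of the dynein of cilia, averaged 11.8 and 12.4 CPM in LB PE, against 50.2, 51.6 and 117 CPM in MB ICM (change -1.90 ± 0.38 SE, adjusted p = 0.0224). All 5 were lower in every LB PE library than in any MB ICM library, which the rule for naming falls required. The same held for all 14 genes called lower, against 8.84% of all tested genes.

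The other 8 symbol-bearing genes called lower included a proteasome subunit, an actin regulator and a chemokine. PSMA7, a subunit of the proteasome, averaged 803 and 619 CPM in LB PE, against 1747, 2247 and 4427 CPM in MB ICM, with replicate 5 the highest MB ICM library (change -1.77 ± 0.39 SE, adjusted p = 0.0458). Without replicate 5 the changes of PSMA7 and SCNM1 were -0.90 and -0.94. NUDT4, a phosphatase of inositol pyrophosphates, averaged 50.1 and 57.7 CPM in LB PE, against 254, 178 and 227 CPM in MB ICM. NUDT4 changed by -1.74 ± 0.35 SE, adjusted p = 0.0258. MARCKSL1, a regulator of actin, averaged 35.6 and 33.7 CPM in LB PE, against 108, 98.3 and 201 CPM in MB ICM. CCL24, a chemokine, averaged 4.67 and 0 CPM in LB PE, against 29, 40.9 and 17 CPM in MB ICM. The changes of SCNM1, MARCKSL1, NBAS, CCL24, MYH8 and BOLA-DRB3 ranged from -1.66 to -1.19. Of 22 alternative settings, 19 lost the calls of MARCKSL1 and NBAS and 18 lost that of PSMA7. MYH8, a myosin heavy chain, and BOLA-DRB3, a class II histocompatibility chain, belong to families of near-identical genes, so their counts are uncertain.

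The following genes were called higher and, apart from HSP90B1 of the stress list, belong to no list. ANKRD1, an ankyrin repeat protein switched on by YAP in other cells, averaged 104 and 162 CPM in LB PE, against 22.9, 19.1 and 3.23 CPM in MB ICM (change 2.79 ± 0.58 SE, adjusted p = 0.0353). GULO, the last enzyme of vitamin C synthesis, averaged 74.8 and 226 CPM in LB PE, against 36, 28.1 and 12.7 CPM in MB ICM (change 2.22 ± 0.45 SE, adjusted p = 0.0258). ALPL, an alkaline phosphatase, averaged 88.8 and 99.2 CPM in LB PE, against 12.4, 24 and 4.41 CPM in MB ICM (change 2.19 ± 0.40 SE, adjusted p = 0.0115). TMTC1, a mannosyltransferase of the endoplasmic reticulum, averaged 12.5 and 82.3 CPM in LB PE, against 0.861, 0 and 0 CPM in MB ICM, with most of its level in replicate 5 of LB PE (change 2.18 ± 0.38 SE, adjusted p = 0.00774). EPB41L4A, a FERM domain protein, averaged 68 and 55.8 CPM in LB PE, against 7.11, 9.8 and 3.44 CPM in MB ICM (change 2.22 ± 0.36 SE, adjusted p = 0.00655). ICOSLG, a ligand of a T cell costimulatory receptor, averaged 45.5 and 125 CPM in LB PE, against 0.505, 25.9 and 11.8 CPM in MB ICM (change 2.07 ± 0.44 SE, adjusted p = 0.0317). HSP90B1, a chaperone of the endoplasmic reticulum, averaged 1028 and 1185 CPM in LB PE, against 540.3, 678 and 489 CPM in MB ICM (change 1.03 ± 0.23 SE, adjusted p = 0.0404). None of these 7 genes overlapped between the classes, which held for all 88 called genes. Among all tested genes 12.2% lay above and 8.84% below without overlap. Without replicate 5 the changes of GULO and TMTC1 were 1.24 and 1.08, with adjusted p-values of 0.444 and 0.341.

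Other pathways held few called genes. The only called members were RSPO3 among 18 tested WNT genes, CDH2 among 17 integrin and adhesion genes, PDGFRA among 16 growth factor receptor genes, CGN among 28 junction genes and HSP90B1 among 24 stress genes, each higher in LB PE. No gene was called among 24 Nodal and BMP genes, 17 Hippo genes, 20 endocytosis genes, 30 secretory pathway genes, 20 glycolysis genes, 24 lipid and sterol synthesis genes, 22 epigenetic enzymes, 34 ribosomal proteins, 25 oxidative phosphorylation genes or 30 cell cycle genes. Median changes under 0 in these lists were found for oxidative phosphorylation (-0.17, 5 of 25 above 0), stress (-0.17, 11 of 24), cell cycle (-0.22, 9 of 30) and lipid and sterol synthesis (-0.24, 6 of 24). Ribosomal proteins had a median of 0.01. CDKN1A, an inhibitor of the cell cycle, averaged 23.3 and 12.5 CPM in LB PE, against 210.1, 71.5 and 61.7 CPM in MB ICM (change -1.86 ± 0.79 SE, adjusted p = 0.34), lower without overlap and not called. SMAD7, an inhibitor of Nodal and BMP signalling, averaged 45.9 and 39.4 CPM in LB PE, against 8.59, 7.49 and 6.16 CPM in MB ICM (adjusted p = 0.082). Markers of oocyte, cumulus, sperm and blood cells had no called member among 9, 10, 1 and 2 tested genes. Their median changes were 0.00, 0.09, -0.65 and -0.12.

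**Figure D4:**
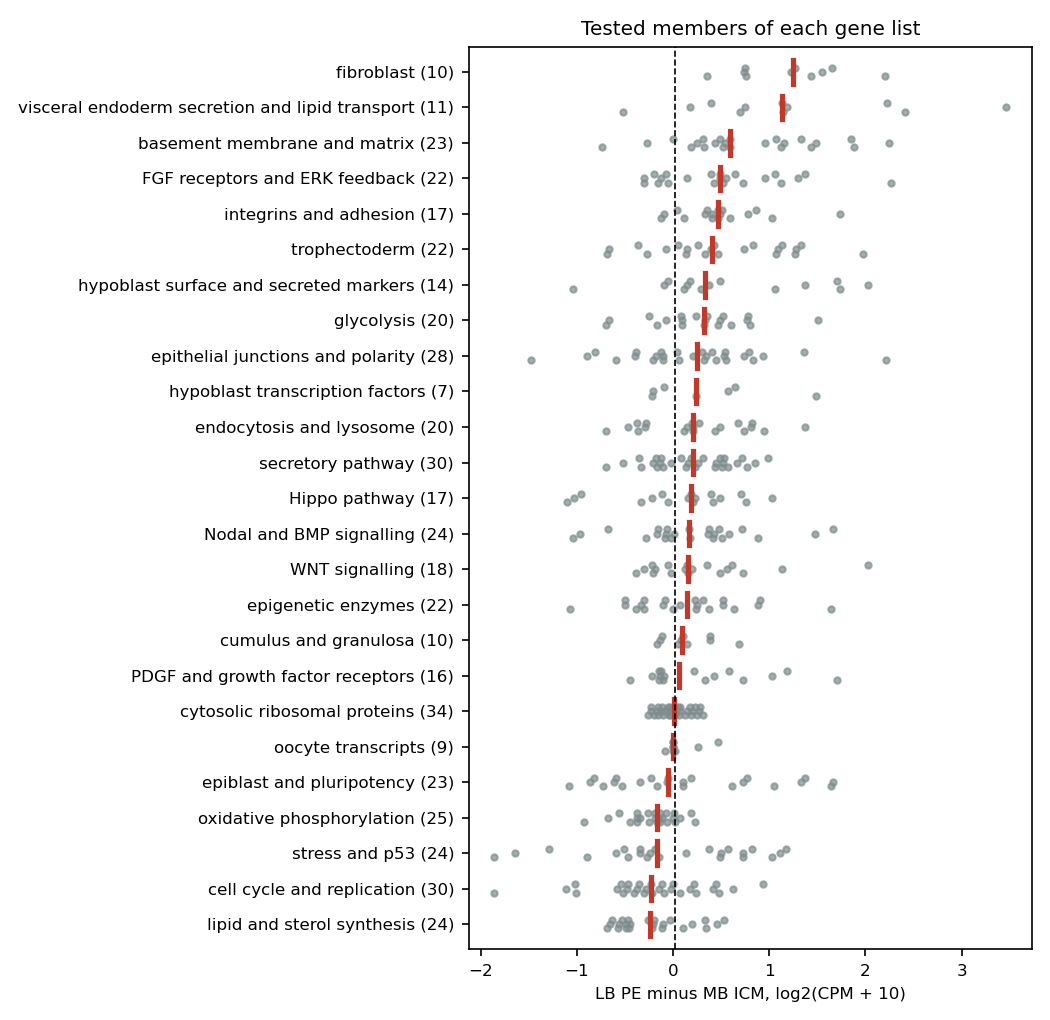
Changes from MB ICM to LB PE (x axis, log2 of CPM + 10) of the tested members of each gene list with 5 or more of them (y axis, number tested in brackets). Points are genes, red bars list medians and the dashed line the median of all tested genes (0.02); the highest medians are those of the fibroblast (1.25) and visceral endoderm secretion (1.14) lists.

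LB EPI, the other day 9 inner class, was set beside the same genes. LB PE and LB EPI differed in 676 genes (5.39%), and in 133 with a spread per class. LB EPI and MB ICM differed in 640 genes (5.1%), and in 708 with a spread per class. The first count was 408 without replicate 2 and 260 without replicate 5, and the second was 370, 325, 341 and 315 without replicates 1, 2, 3 and 5. Each pair of these comparisons shares the averages of a class, so their calls are not independent, and the values are given side by side.

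Genes called between LB PE and MB ICM stood at different levels in LB EPI. PDGFRA averaged 11.7, 24.3 and 23.6 CPM in LB EPI in the order replicate 2, 3 and 5, and LB PE minus LB EPI was 3.36 ± 0.35 SE, adjusted p = 7.96e-06. RSPO3 averaged 8.02, 3.73 and 9.18 CPM in LB EPI, with a difference of 3.78 ± 0.37 SE, adjusted p = 3.26e-06. KLB averaged 1.65, 3.97 and 2.86 CPM in LB EPI, with a difference of 3.41 ± 0.34 SE, adjusted p = 4.13e-06. In these 3 genes every LB EPI library lay below every MB ICM library. ICOSLG averaged 221, 225 and 192 CPM in LB EPI, and LB EPI minus MB ICM was 3.41 ± 0.38 SE, adjusted p = 2.53e-05. ALPL averaged 50.6, 102 and 46.2 CPM in LB EPI (LB EPI minus MB ICM 1.64 ± 0.35 SE, adjusted p = 0.0068). Both genes were above MB ICM in every LB EPI library. SLC7A5 averaged 67.4, 28.8 and 60.1 CPM in LB EPI (LB EPI minus MB ICM -1.90 ± 0.37 SE, adjusted p = 0.00356). A2M averaged 6.44, 0.526 and 4.84 CPM in LB EPI (LB EPI minus MB ICM -2.30 ± 0.31 SE, adjusted p = 0.000153). MDK, called lower in LB PE than in MB ICM, averaged 175, 197 and 190.0 CPM in LB EPI (LB EPI minus MB ICM 1.02 ± 0.29 SE, adjusted p = 0.0474).

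GATA6 and FN1 were called between LB PE and LB EPI and not between LB PE and MB ICM. Both were also called lower in LB EPI than in MB ICM. GATA6 averaged 27.3, 42 and 57.9 CPM in LB EPI, with LB PE minus LB EPI at 2.87 ± 0.37 SE, adjusted p = 5.66e-05, and LB EPI minus MB ICM at -2.23 ± 0.33 SE, adjusted p = 0.00036. FN1 averaged 756, 434 and 624 CPM in LB EPI, with LB PE minus LB EPI at 2.96 ± 0.28 SE, adjusted p = 2.1e-06, and LB EPI minus MB ICM at -2.47 ± 0.25 SE, adjusted p = 6.33e-06. NANOG averaged 718, 915 and 1211 CPM in LB EPI, with LB PE minus LB EPI at -2.61 ± 0.37 SE, adjusted p = 0.000218. With a spread per class these 3 differences between LB PE and LB EPI stayed called, at adjusted p-values of 0.000906, 9.2e-05 and 0.0227.

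Within libraries the cells of LB PE varied widely. PDGFRA ran from 50.5 to 595 CPM with a median of 364 in the 14 LB PE cells of replicate 3, and from 0 to 924 CPM with a median of 164 in the 9 of replicate 5. In MB ICM its medians were 104, 48.2 and 64.7 CPM in replicates 1, 2 and 5. CLU ran from 0 to 1451 CPM with a median of 54.2 in LB PE of replicate 3, and from 43.3 to 1036 CPM with a median of 317 in replicate 5. Its MB ICM medians were 0, 10.8 and 7.70 CPM. APOA2 was at 0 in 8 of 14 and 8 of 9 LB PE cells, so its averages rest on 7 cells, with single values up to 845 CPM. LAMA1 was at 0 in 9 of 14 and 7 of 9 LB PE cells, and its averages likewise rest on 7 cells. SLC7A5, called lower, had medians of 0 and 39.1 CPM in LB PE, against 222, 136 and 127 CPM in MB ICM.

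**Figure D5:**
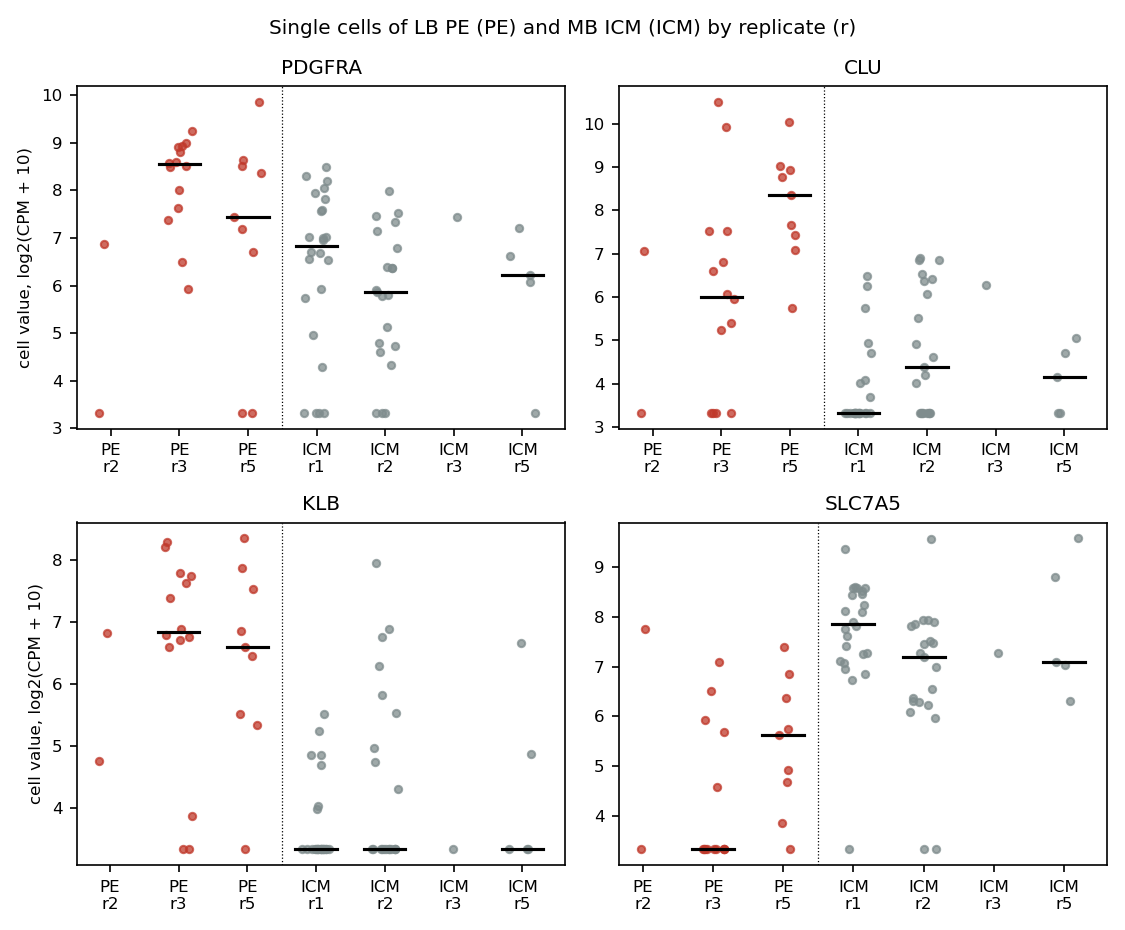
Value of each cell (y axis, log2 of CPM + 10) for PDGFRA, CLU, KLB and SLC7A5 in LB PE and MB ICM, split by replicate (x axis); horizontal bars are medians of groups with 3 or more cells. Cells at the lowest position have no read of the gene, and the LB PE medians of PDGFRA and KLB lie above every MB ICM median.

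Shares of cells with a read were compared at equal depth, with cells thinned to 10000 reads. PDGFRA was detected in 18 of 21 LB PE cells (85.7%, exact binomial 95% interval 63.7 to 97.0) and in 22 of 47 MB ICM cells (46.8%, 32.1 to 61.9). In each class 4 shallower cells were left out. Without thinning the shares were 88.0% in LB PE and 84.3% in MB ICM. In LB TE, a class with little PDGFRA at a median of 196521 reads, 3 of 31 thinned cells (9.68%) had a read. CLU was detected in 12 of 21 LB PE cells (57.1%, 34.0 to 78.2) and 4 of 47 MB ICM cells (8.51%, 2.37 to 20.4). The LB PE libraries differed, with CLU in 5 of 13 cells of replicate 3 and 6 of 7 of replicate 5. In LB TE a read of CLU was found in 9 of 31 cells (29.0%), with 7 of 21 in replicate 3 and 2 of 9 in replicate 5. At 20000 reads CLU was detected in 15 of 20 LB PE cells and 14 of 47 MB ICM cells (29.8%), and PDGFRA in 19 of 20 LB PE cells and 30 of 47 MB ICM cells (63.8%). At that depth CLU was in 7 of 12 LB PE and 15 of 21 LB TE cells of replicate 3. In replicate 5 it was in 7 of 7 LB PE and 1 of 9 LB TE cells. For GATA6 the thinned shares were 85.7% in LB PE and 83.0% in MB ICM. These intervals cover counting error only, and cells of a library are not replicates.

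Cells with reads of both PDGFRA and NANOG occurred in both classes. They also occurred in LB EPI (11 of 45) and LB TE (3 of 31) after thinning to 10000 reads. After thinning, both were detected in 10 of 21 LB PE cells, PDGFRA alone in 8, NANOG alone in 2 and neither in 1. In MB ICM both were detected in 15 of 47 cells, PDGFRA alone in 7, NANOG alone in 11 and neither in 14. The split depended on depth. At 20000 reads both were detected in 16 of 20 LB PE cells, with PDGFRA alone in 3. In MB ICM both were then detected in 21 of 47 cells, with PDGFRA alone in 9. At 10000 reads SOX2 was found together with PDGFRA in 6 of 21 LB PE cells and 12 of 47 MB ICM cells.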

How the data were processed

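Per the submitters' processing notes, Trim Galore, HISAT2, featureCounts and Seurat were used with genome build ARS-UCD1.2. Tool versions and any counting of molecular identifiers are not given there. The values deposited by the authors are natural logs of 1 plus the count scaled to 10000 per cell, for 18825 genes in 286 cells; 2 of 288 listed cells carry none. The log was undone, values were rescaled to CPM, and whole reads were recovered (100% of values, tolerance 0.1 reads). The 2 libraries that received base editor RNA were not analysed here.

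CPM was averaged over the cells of a class in a library where there were 3 or more. A gene was tested if enough averages to fill the smallest class reached 10 CPM. The smallest class had 1 average, so a gene could enter through a single LB PE average. limma 3.58.1 (R 4.3.3, statmod 1.5.0, with trend and robust options) was fitted to log2(CPM + 10) of 16 averages of all 7 classes, with library as a random block (consensus correlation 0.18) and Benjamini-Hochberg adjustment. A replicate is a library. The p-values therefore reflect the spread between library averages, estimated over all classes. Part of it can be technical or come from the limited cells and reads behind an average.

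Tested on simulated data, this fit recovered sizes and directions of changes, which were set only in genes well above the filter in MB ICM. That test did not cover the 48 genes called higher with an MB ICM mean under 10 CPM. Between LB PE and MB ICM the fit made more false calls than its threshold allows, since it shares 1 spread among classes that vary unequally. Fits with a spread per class or per average, chosen after seeing the data, made fewer. The planned design was kept, and both counts are given.

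The members, gene lists and the rule for naming genes were chosen with earlier results of these data known. The rule took up to 15 rises and 15 falls, the largest among called genes that have a symbol, do not overlap and keep their sign within replicate 5. It added up to 4 genes per list by smallest adjusted p, and 15 lineage genes; part of these are printed. Alternatives covered pseudocount, filter, block, scaling, averaging, cell and read minimums and leaving out each library. Shares of cells carry exact binomial intervals after thinning to 10000 reads, except for SOX17, whose limit is approximate and from cells not thinned. Some genes are not reported here.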

Additional observations from a re-analysis of the deposited data

How the results depend on the processing

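The count of genes called between LB PE and MB ICM depended on the processing, while the called genes kept their sign apart from the exceptions given with that count. Against 88 as reported, it was 13 with a pseudocount of 1, 39 with no filter, 46 with a filter at 50 CPM, 36 with no library block and 2 with limma-voom on summed reads (795 at an unadjusted p under 0.05). It was 53 from the mean over cells of log2 values and 137 from cells of 20000 or more reads. It was 0 with library as a fixed term, 0 with LB PE and MB ICM averages alone, which leaves 5 averages, and 0 with a spread per class or per average (696 at an unadjusted p under 0.05 for the last). Averages of 2 or more cells gave 20 and only the 3 inner classes 8; these 2 and the spread settings were chosen after seeing the data. Leaving out 1 library gave 2 (replicate 5) to 269 (replicate 3); without replicate 5 or 3 a single LB PE average is left, assumed to vary like the other classes.

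LB PE against LB EPI, with 676 genes called, gave 428 with no filter, 387 with no block, 419 with limma-voom, 358 with averages of 2 or more cells, 133 with a spread per class and 176 with a spread per average. Leaving out 1 library gave 260 to 617. LB EPI against MB ICM, with 640, gave 419 with no filter, 401 with library fixed, 1087 with limma-voom, 985 from means of log2 values, 176 with averages of 2 or more cells and 1115 with a spread per average. Leaving out 1 library gave 315 to 604. Apart from the fits on fewer samples or genes, the cause was not tested.

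For the 70 genes followed singly, 16 of 1590 recomputed changes had the opposite sign, none in a called gene. COL4A1 was -0.21 and HNF4A -0.46 with limma-voom. HNF4A was -0.0079 with averages of 2 or more cells and -0.12 in cells of 20000 or more reads, where COL3A1 was -0.21. Leaving out 1 library, KRT18 ranged from -0.21 (without replicate 3) to 0.98, CDX2 from -0.29 (without replicate 3) to 0.56, NANOG from -0.38 to 0.31 (without replicate 5) and SOX2 from -1.94 to 0.81 (without replicate 5). CDX2 was -0.058 (pseudocount 1), -0.997 (limma-voom), -0.020 (means of log2 values), -0.22 (20000 reads) and -0.16 (within replicate 5). NANOG was 0.050 (means of log2 values) and 0.0125 (spread per average). The shallow LB PE cells limit the precision of low genes.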

Other observations

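Other genes called higher in LB PE than in MB ICM, picked after their values were seen, are given as values. Genes of epithelial and metabolic function were among them. GJB1, a gap junction connexin, averaged 13.6 and 30.1 CPM in LB PE, against 0, 0 and 0.769 CPM in MB ICM. OTC, a urea cycle enzyme, averaged 18 and 10.4 CPM in LB PE, against 0.287, 0 and 0 CPM in MB ICM. SLC7A9, an amino acid transporter subunit, averaged 12 and 11.6 CPM in LB PE, against 0.574, 0 and 0.769 CPM in MB ICM. CYBRD1, an iron reductase, averaged 9.1 and 30.8 CPM in LB PE and was listed at 0 in all MB ICM libraries. CALD1, the actin-binding protein caldesmon, averaged 1065 and 1671 CPM in LB PE, against 396, 502 and 275 CPM in MB ICM, at a higher level than these and with no overlap (change 1.77 ± 0.30 SE, adjusted p = 0.00763). LGALS9, the sugar-binding protein galectin-9, averaged 50.5 and 26.1 CPM in LB PE, against 3.85, 0.459 and 0 CPM in MB ICM. These calls too were lost with a spread per class.

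The 3 cells left out of the averages were read singly. The LB PE cells of replicate 2 had 177675 and 9661 reads. The deeper one had 332 CPM of GATA6, 107 of PDGFRA, 720.4 of RSPO3, 1930.0 of APOE and 5.63 of NANOG. The shallow one had no read of GATA6, PDGFRA or RSPO3. The mean of these 2 LB PE cells lay above the MB ICM mean in 46 of the 74 genes called higher (62.2%), compared with 25.8% of all tested genes. It lay below the MB ICM mean in 12 of the 14 called lower (85.7%), compared with 71.9% of all tested genes. Replicate 2 also supplied an MB ICM average. The calls were made with the same MB ICM averages, so these shares are no independent check of them. The MB ICM cell of replicate 3 had 103694 reads, with 617 CPM of GATA6, 164 of PDGFRA and 57.9 of NANOG.

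The genes most like PDGFRA over the 16 class-by-library averages, by Pearson correlation of log2(CPM + 10), were LOC101907813 (0.92), FN1 (0.92), COX18 (0.92), RFC1 (0.91) and FGFR4 (0.91). Those most like NANOG were FAM162A (0.97), TMEM243 (0.96), LOC112446388 (0.96), MS4A8 (0.95) and CAV1 (0.95). The averages share libraries and classes, and the values are a description.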
